A study of Mus musculus with 6 samples.

Results

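Spp1, Srpx2, Olfml2b and Adamts7 encode proteins that cells secrete into the matrix around them, and their transcripts were followed here in lymphatic endothelial cells sorted from mouse melanomas. The 4 genes, out of 13454 in the deposited table, were chosen by their CPM values in these same 6 libraries, as secreted matrix genes whose values did not overlap between the genotypes. Their difference between the genotypes is therefore given as a description and not tested. The tumours grew in mice with a knockout of Ch25h restricted to lymphatic vessels (Ch25h KO, 3 libraries) or in their littermate controls (WT, 3 libraries). Both groups carried the transplanted melanoma line B16-OVA-VEGFC, which the study's design describes as lymphangiogenic. Ch25h encodes the enzyme that turns cholesterol into 25-hydroxycholesterol. The sources used here name neither the driver of the deletion, nor the age and sex of the mice, nor whether each library came from its own animal. The p-values below therefore compare the genotypes with a spread between libraries that could be technical in part or whole. Cells were sorted as negative for CD45, a leukocyte protein, and positive for CD31 and GP38, which together mark lymphatic endothelium.

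The 4 proteins act at different points of the matrix. Osteopontin, the product of Spp1, is an acidic adhesive phosphoprotein that binds integrins and CD44 and is made in quantity by macrophages, osteoblasts and many tumours. Srpx2 is a sushi-repeat protein that binds the urokinase receptor uPAR and has been described in sprouting endothelium. Olfml2b belongs to the secreted olfactomedin-domain proteins, whose role in endothelium is little defined. Adamts7 is a zinc metalloprotease that degrades cartilage oligomeric matrix protein and thrombospondin-1 and is best known from vascular smooth muscle and from genetic association with coronary disease in humans.

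On the mm10 genome build all 4 genes lie on the plus strand, per GENCODE release M21. Spp1 occupies chr5:104435118-104441050 with 6 exons in its longest coding transcript. Srpx2 lies at chrX:133908426-133932446 with 11 exons, and Olfml2b at chr1:170644532-170682789 with 8 exons. Adamts7 lies at chr9:90163069-90208071 and has 24 exons. Of its 6282 exonic bases, 122 overlap exons of Tbc1d2b on the other strand, and 309 of the 1648 exonic bases of Spp1 overlap the unclassified transcript Gm42793 on the same strand. The library kit does not mark strand, so reads from the stretch shared with Tbc1d2b could not be told apart.

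The promoter table of RefSeq (GRCm38.p6) held a window for 3 of the 4 genes, all but Adamts7. The 250 bases before the annotated start are shown for Spp1 and Srpx2, the pair whose values followed each other most closely over the libraries. Capitals mark the motifs found, and both windows read 5′ to 3′ on the plus strand, at chr5:104434861-104435110 for Spp1 and chrX:133908175-133908424 for Srpx2.
Spp1: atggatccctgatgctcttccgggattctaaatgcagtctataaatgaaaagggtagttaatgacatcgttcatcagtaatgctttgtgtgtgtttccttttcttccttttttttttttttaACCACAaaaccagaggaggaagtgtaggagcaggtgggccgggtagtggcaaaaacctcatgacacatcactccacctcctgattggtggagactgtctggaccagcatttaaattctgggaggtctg
Srpx2: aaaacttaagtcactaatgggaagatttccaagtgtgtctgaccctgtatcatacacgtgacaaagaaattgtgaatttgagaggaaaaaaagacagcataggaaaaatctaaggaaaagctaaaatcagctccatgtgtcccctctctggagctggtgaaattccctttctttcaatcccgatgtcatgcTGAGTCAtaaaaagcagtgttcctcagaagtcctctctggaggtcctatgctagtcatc
Searched on both strands were TGANTCA, the letters bound by AP-1, TGTGGT, those bound by RUNX factors, and a direct repeat of AGGTCA with 4 bases between, bound by the oxysterol receptor LXR. The Srpx2 window held an AP-1 match 59 to 53 bases before the start, and 6.75% of the 32851 upstream windows of the same length hold such a match. The Spp1 window held a RUNX match on the opposite strand, 128 to 123 bases before the start, as do 14.0% of all windows. The LXR repeat was in none of the 3 windows and in 0.0152% of all windows. The Olfml2b window held none of the 3 motifs. Its GC content was 69.6%, against 43.6% in the Spp1 window, 41.2% in the Srpx2 window and a median of 52.4% over all windows. No motif matches overlapped each other. The longest run shared by the 300-base windows of Spp1 and Srpx2, looked for after the sequences were seen, has 12 bases.
Shared run: catcactccacc
This run lies at chr5:104435048-104435059 in Spp1, 63 to 52 bases before the start. In Srpx2 it lies at chrX:133908421-133908432 and spans the annotated start. It is held by 4 of the 32851 windows of 300 bases, the others being those of Htra3 and Tom1l1, and the longest runs that either gene shares with Olfml2b have 8 bases. A match of letters is a description only and does not show that a factor binds there.

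Levels are given in CPM, reads scaled to a common library size and adjusted by edgeR's TMM factors, from libraries with 36556824 to 46165273 reads assigned to the listed genes. Ch25h, the deleted gene, had 0, 1 and 117 reads in Ch25h KO libraries 1, 2 and 3, against 3786, 3725 and 4913 reads in WT libraries 1, 2 and 3. Ch25h KO library 3 thus held 3.18% of the mean Ch25h level of WT. Limma was fitted to log2(CPM + 1) of the 11980 genes that averaged 1 CPM or more. At an adjusted p under 0.05 it called 1 gene, Ch25h itself, or 0.00835% of those tested. On whole reads recovered from the values, edgeR called 0 genes, and its p before adjustment was under 0.05 in 5.46%. The calls of DESeq2 on these reads numbered 11, or 0.0918%, and did not include Ch25h (DESeq2, adjusted p = 0.208). The groups did not overlap in 10.2% of the tested genes, 4.38% with all Ch25h KO libraries higher and 5.78% with all of them lower. The choice of the 4 genes fixed that they are among these, and nothing is read from it.

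Spp1 was by far the most abundant of the 4. It stood at 615, 556 and 949 CPM in libraries 1 to 3 of Ch25h KO, against 386, 389 and 339 CPM in libraries 1 to 3 of WT. Ch25h KO library 3 was well above the other knockout libraries, and the WT libraries lay close together. The means were 707 ± 212 CPM in Ch25h KO against 371 ± 28.2 CPM in WT (SD, n = 3 each), a ratio of 1.90 and a log2 fold change of 0.89 ± 0.20 (SE). Without Ch25h KO library 3 the ratio was 1.58. By mean level Spp1 ranked 233 among the tested genes, and 95% Poisson intervals for its reads reached at most 1.57% to either side, far less than the spread between libraries.

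Srpx2, the uPAR ligand, showed the largest ratio of the 4 at a much lower level. Its values were 26.5, 25.5 and 43.3 CPM in libraries 1 to 3 of Ch25h KO, against 13.8, 13.4 and 11.4 CPM in libraries 1 to 3 of WT. Ch25h KO library 3 was again the highest, and the lowest knockout value was 1.85 times the highest WT value. The means were 31.8 ± 10.0 CPM in Ch25h KO against 12.9 ± 1.29 CPM in WT (SD, n = 3 each), a ratio of 2.47 and a log2 fold change of 1.20 ± 0.23 (SE). Without Ch25h KO library 3 the ratio was 2.02. The gene had 527 to 1718 reads per library, and their 95% Poisson intervals reached at most 8.64% to either side, beside a coefficient of variation of 10.1% among the WT libraries.

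Olfml2b differed by less, with tight libraries in both genotypes. It stood at 73.3, 85.0 and 93.0 CPM in libraries 1 to 3 of Ch25h KO, against 48.1, 53.7 and 54.5 CPM in libraries 1 to 3 of WT. The means were 83.8 ± 9.87 CPM in Ch25h KO against 52.1 ± 3.47 CPM in WT (SD, n = 3 each), a ratio of 1.61 and a log2 fold change of 0.67 ± 0.15 (SE). No library stood far from the others of its genotype, with coefficients of variation of 11.8% in Ch25h KO and 6.67% in WT.

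Adamts7, the protease, was the member that was lower in the knockout. It stood at 45.2, 52.6 and 54.6 CPM in libraries 1 to 3 of Ch25h KO, against 89.0, 84.8 and 75.3 CPM in libraries 1 to 3 of WT. The means were 50.8 ± 4.91 CPM in Ch25h KO against 83.0 ± 7.02 CPM in WT (SD, n = 3 each), a ratio of 0.612 and a log2 fold change of -0.70 ± 0.15 (SE). Tbc1d2b, whose exons share 1.94% of the exonic bases of Adamts7, had 69.9, 79.6 and 70.4 CPM in libraries 1 to 3 of Ch25h KO and 80.6, 116 and 116 CPM in libraries 1 to 3 of WT, a log2 fold change of -0.48 ± 0.17 (SE; by limma, adjusted p = 0.836).

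**Figure D1:**
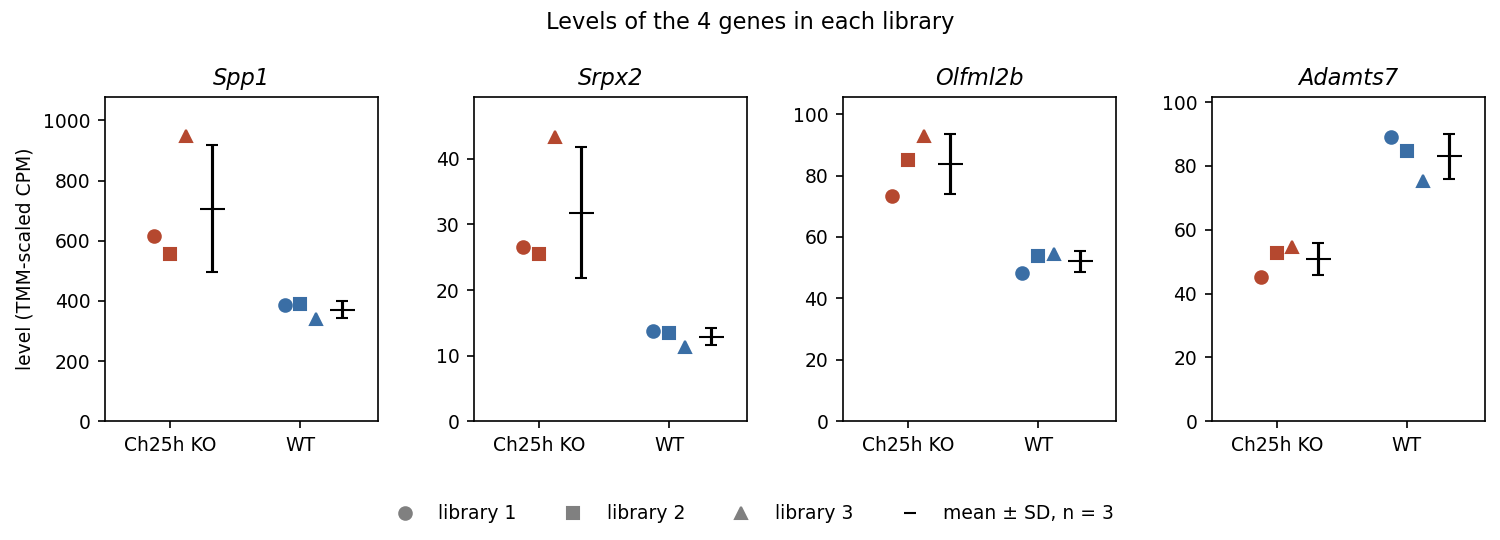
Levels of Spp1, Srpx2, Olfml2b and Adamts7 in TMM-scaled CPM (vertical axis, starting at 0, its own scale in each panel) in 3 Ch25h KO and 3 WT libraries, with mean and SD beside the points. Ch25h KO library 3 is the highest library for Spp1 (949 CPM) and Srpx2 (43.3 CPM), and Adamts7 is the gene that lies lower in Ch25h KO.

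The gap between the genotypes was widest for Srpx2. The knockout library nearest to WT differed from the WT library nearest to it by a factor of 1.85 for Srpx2, 1.43 for Spp1, 1.38 for Adamts7 (WT above) and 1.35 for Olfml2b. Among the secreted matrix genes listed below, the smallest gap without overlap was that of Mmrn2, at 264 CPM in Ch25h KO against 266 CPM in WT. Just on the other side stood Sparcl1, at 12.96 CPM in its lowest Ch25h KO library and 13.29 CPM in its highest WT library.

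Per kilobase of annotated exon, a scale on which different genes can be compared, the order of the 4 genes changed between the genotypes at its lower end. In Ch25h KO the levels were 429 ± 128 CPM per kilobase for Spp1, 27.1 ± 3.19 for Olfml2b, 10.9 ± 3.42 for Srpx2 and 8.08 ± 0.782 for Adamts7 (SD, n = 3). In WT they were 225 ± 17.1 for Spp1, 16.8 ± 1.12 for Olfml2b, 13.2 ± 1.12 for Adamts7 and 4.40 ± 0.443 for Srpx2 (SD, n = 3). Srpx2 and Adamts7 therefore changed places, although in Ch25h KO their means differed by less than the SD of Srpx2. Both were chosen for their difference in these same libraries, so nothing is read from the changed order. Spp1 lay above 99.2% of the 11259 tested genes with an annotated length, Olfml2b above 76.8%, Adamts7 above 59.6% and Srpx2 above 51.2%.

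Spp1 and Srpx2 varied together, also within the genotypes. Their log2 values correlated with Pearson r = 0.993 over the 6 libraries, and r = 0.992 after the mean of each genotype was taken off, a description that rests largely on Ch25h KO library 3. Olfml2b correlated less with both once the genotype means were removed, with r = 0.49 for Spp1 and r = 0.51 for Srpx2. Adamts7 correlated with the other genes over all 6 libraries with r between -0.87 and -0.76. The choice of the genes fixed that sign. After the genotype means were taken off its correlations were between 0.39 and 0.63. The genes share libraries and scaling, and 6 libraries are few.

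The genes most like each member were searched among 10214 other genes that averaged 5 CPM or more, by Pearson correlation of log2(CPM + 1) over the 6 libraries. For Srpx2 they were L3mbtl3, which encodes a chromatin reader of methylated lysine, with r = 0.999, Crybg3, which encodes a protein with crystallin-type domains, with r = 0.998, and Spp1. For Spp1 they were L3mbtl3 (r = 0.994), Srpx2 and Crybg3 (r = 0.991). L3mbtl3 stood at 19.6, 19.6 and 24.6 CPM in libraries 1 to 3 of Ch25h KO, against 15.3, 15.3 and 14.1 CPM in libraries 1 to 3 of WT. Library 3 of Ch25h KO was the highest, as for Spp1 and Srpx2. For Olfml2b the nearest genes were C1galt1c1, which encodes a chaperone of O-glycan synthesis (r = 0.986), Asb3 (r = 0.978) and Stau2, which encodes an RNA-binding protein (r = 0.972). For Adamts7 they were Adss, which encodes an enzyme of AMP synthesis (r = 0.981), the transcription factor gene Zeb1 (r = 0.979) and Numa1, which encodes a spindle protein (r = 0.976). High values are easily reached with so few libraries: r exceeded 0.95 for 39 genes with Spp1, 25 with Srpx2, 9 with Olfml2b and 10 with Adamts7. The choice of the 4 genes also made the search favour genes split by genotype, as all those named here were, beside 10.2% of all tested genes. After the genotype means were taken off, r was 0.81, 0.72 and 0.71 for Adss, Zeb1 and Numa1 with Adamts7. It was 0.86, 0.78 and 0.93 for C1galt1c1, Asb3 and Stau2 with Olfml2b. For L3mbtl3 it was 0.997 with Srpx2 and 0.983 with Spp1.

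Receptors and modifiers of osteopontin did not pass the test. Of 20 listed genes 13 were tested, 8 with a higher and 5 with a lower mean log2 value in Ch25h KO, and limma called 0 in either direction. The median log2 fold change was 0.10, against -0.0021 over all tested genes, and 2 members had an unadjusted p under 0.05, which 5.41% of all tested genes had. The receptor gene Cd44 stood at 33.8, 35.8 and 105 CPM in libraries 1 to 3 of Ch25h KO, against 31.3, 17.7 and 20.1 CPM in libraries 1 to 3 of WT. The groups did not overlap, but the knockout libraries 1 and 2 lay just above WT library 1, and the log2 fold change of 1.14 ± 0.40 (SE) did not pass (limma, adjusted p = 0.836). Ch25h KO library 3, highest in Cd44, was also the highest in Spp1. The 8 integrin genes tested overlapped between the genotypes, from the abundant Itgb1, Itga9 and Itga5 to Itga4 and Itga8, which stayed below 7 CPM in every library. Itgb1, the common beta subunit, averaged 1748 ± 371 CPM in Ch25h KO against 1531 ± 317 CPM in WT, Itga9 averaged 549 ± 65.4 CPM in Ch25h KO against 562 ± 134 CPM in WT, and Itga5 averaged 464 ± 147 CPM in Ch25h KO against 421 ± 49.7 CPM in WT (SD, n = 3 each). Tgm2, which encodes a transglutaminase that crosslinks osteopontin, stood at 375, 573 and 360 CPM in libraries 1 to 3 of Ch25h KO, against 518, 676 and 1096 CPM in libraries 1 to 3 of WT. Its log2 fold change was -0.77 ± 0.28 (SE; limma, adjusted p = 0.836), with overlap between the groups.

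Among the partners of Srpx2 the urokinase system was present and did not pass. Of 15 listed genes 10 were tested, 6 with a higher and 4 with a lower mean, with a median log2 fold change of 0.03. Limma called 0 in either direction, and 1 had an unadjusted p under 0.05, beside 5.41% of all tested genes. The groups overlapped in all 10. Plaur, which encodes uPAR itself, stood at 420, 316 and 551 CPM in libraries 1 to 3 of Ch25h KO, against 393, 306 and 277 CPM in libraries 1 to 3 of WT, a log2 fold change of 0.38 ± 0.22 (SE; by limma, adjusted p = 0.955). Plat, which encodes tissue plasminogen activator, averaged 364 ± 87.8 CPM in Ch25h KO against 260 ± 69.7 CPM in WT (SD, n = 3 each; limma, adjusted p = 0.941). The lysosomal protease gene Ctsb averaged 1779 ± 66.5 CPM in Ch25h KO against 1713 ± 161 CPM in WT. Foxp2, a transcription factor gene reported to repress SRPX2 in humans, stood at 1.85, 7.08 and 1.06 CPM in libraries 1 to 3 of Ch25h KO, against 6.50, 7.13 and 8.84 CPM in libraries 1 to 3 of WT. Its log2 fold change was -1.22 ± 0.46 (SE; limma, adjusted p = 0.836), and Ch25h KO library 2 lay within the WT range.

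The tested relatives of Olfml2b did not pass the test. All 4 tested genes of the 12 listed with an olfactomedin domain had a lower mean in Ch25h KO, as had 6039 of all 11980 tested genes. The 4 had a median log2 fold change of -0.33, and the groups overlapped in each. Limma called 0 of the 4, and 0 had an unadjusted p under 0.05, beside 5.41% of all tested genes. Olfml2a, the closest relative by name, stood at 54.6, 77.2 and 62.6 CPM in libraries 1 to 3 of Ch25h KO, against 46.2, 146 and 118 CPM in libraries 1 to 3 of WT (limma, adjusted p = 0.973). WT library 1 lay below every knockout library, so the groups overlapped. Olfm1 averaged 240 ± 35.1 CPM in Ch25h KO against 272 ± 45.5 CPM in WT (SD, n = 3 each), and the latrophilin genes Lphn1 and Lphn2 lay between 13.4 and 44.4 CPM in all libraries.

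Other ADAMTS genes had higher or lower means in the knockout, and none passed the test. Of 24 listed family genes 13 were tested, 5 with a higher and 8 with a lower mean in Ch25h KO, with a median log2 fold change of -0.08. Limma called 0 in either direction, and 0 had an unadjusted p under 0.05, beside 5.41% of all tested genes. Adamts4, an aggrecanase gene, was the most abundant and averaged 375 ± 79.8 CPM in Ch25h KO against 349 ± 108 CPM in WT (SD, n = 3 each; limma, adjusted p = 0.981). Adamts1 averaged 115 ± 29.4 CPM in Ch25h KO against 93.3 ± 27.6 CPM in WT, and Adamts10 averaged 62.0 ± 9.75 CPM in Ch25h KO against 70.4 ± 14.1 CPM in WT. Adamtsl1, which encodes a family member without a protease domain, averaged 44.0 ± 3.91 CPM in Ch25h KO against 53.0 ± 5.14 CPM in WT. Adamts3, which encodes a protease that activates the lymphatic growth factor VEGFC, stood at 5.82, 7.24 and 8.72 CPM in libraries 1 to 3 of Ch25h KO, against 3.92, 5.75 and 4.56 CPM in libraries 1 to 3 of WT. Its groups did not overlap, which held for 1 of the 13 tested family genes, or 7.69%, beside 10.2% of all tested genes. Its log2 fold change of 0.52 ± 0.25 (SE) did not pass (limma, adjusted p = 0.941). The closest paralogue of Adamts7, Adamts12, was low, at 6.15 ± 3.75 CPM in Ch25h KO against 4.29 ± 0.941 CPM in WT (SD, n = 3 each), and was named for that kinship.

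Of 11 listed substrates and inhibitors around the protease 7 were tested, 1 with a higher and 6 with a lower mean, with a median log2 fold change of -0.23. Limma called 0 in either direction, and 1 had an unadjusted p under 0.05, beside 5.41% of all tested genes. Timp3, which encodes a matrix-bound inhibitor of metalloproteases, stood at 628, 917 and 676 CPM in libraries 1 to 3 of Ch25h KO, against 773, 1071 and 1589 CPM in libraries 1 to 3 of WT (log2 fold change -0.59 ± 0.26, SE; limma, adjusted p = 0.916). Ch25h KO library 2 lay above WT library 1. The substrate gene Thbs1 varied widely within both genotypes, from 106 to 415 CPM in Ch25h KO and from 139 to 386 CPM in WT. Comp, the cartilage substrate, was below 2 CPM in every library. The latent TGF-beta binding protein gene Ltbp4 averaged 1419 ± 131 CPM in Ch25h KO against 1670 ± 202 CPM in WT (SD, n = 3 each; limma, adjusted p = 0.973). Grn, which encodes progranulin, averaged 1026 ± 79.5 CPM in Ch25h KO against 1216 ± 175 CPM in WT. The inhibitor genes Timp2 and Reck also overlapped between the genotypes, Timp2 with 670.2 ± 104 CPM in Ch25h KO against 777 ± 207 CPM in WT and Reck with 14.0 ± 3.59 CPM in Ch25h KO against 18.7 ± 4.43 CPM in WT.

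**Figure D2:**
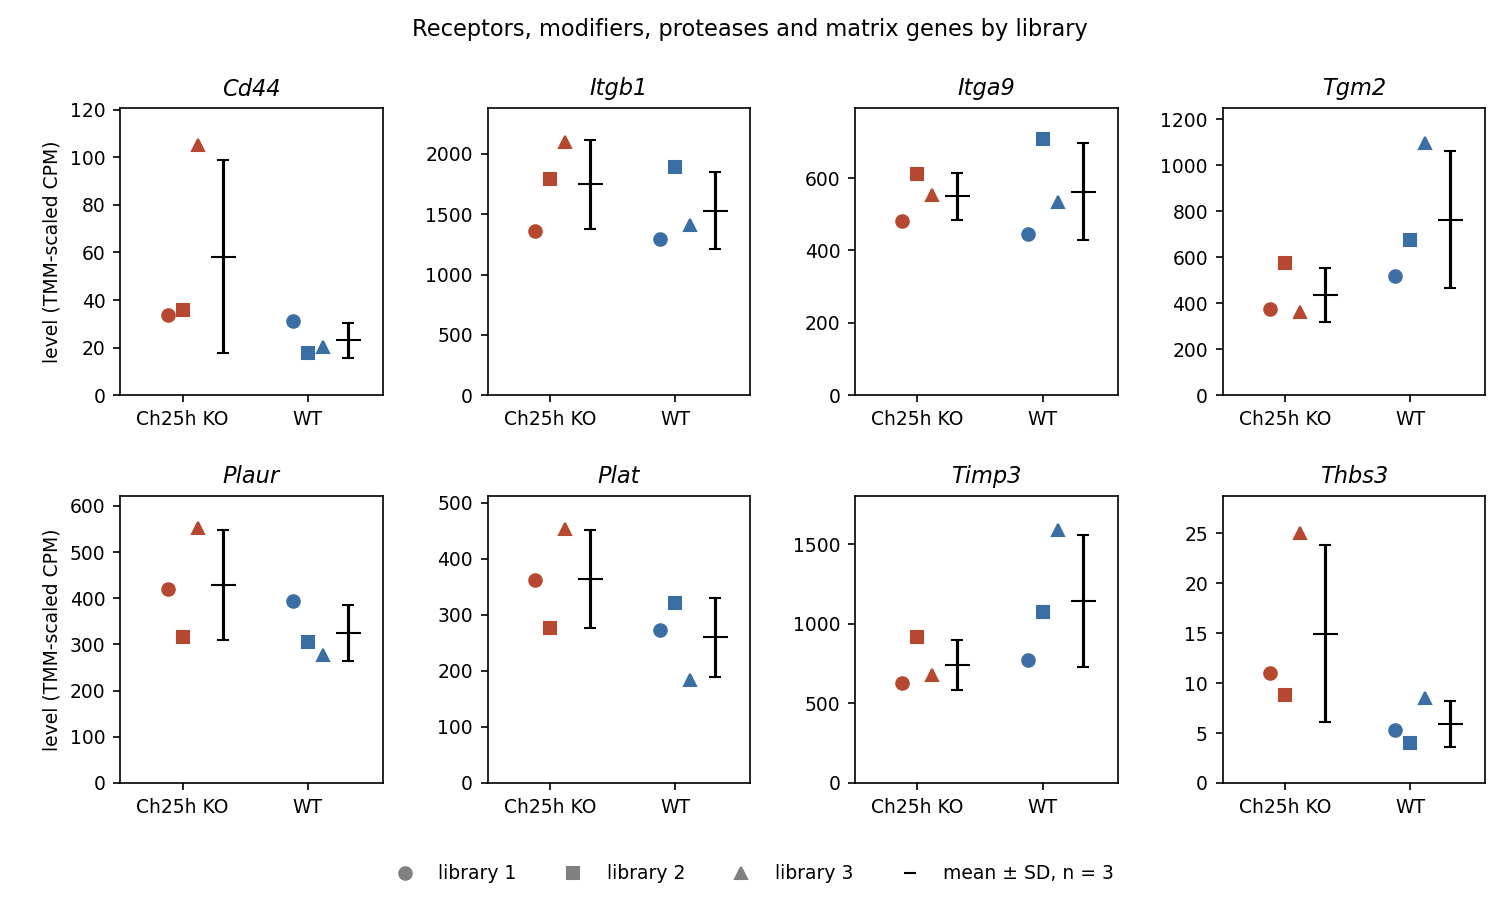
Levels of 8 genes around the 4 members in TMM-scaled CPM (vertical axis, starting at 0, its own scale in each panel), in 3 Ch25h KO and 3 WT libraries with mean and SD. Cd44 reaches 105 CPM in Ch25h KO library 3, and Itgb1, Itga9, Tgm2, Plaur, Plat and Timp3 overlap between the genotypes.

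Other secreted matrix genes showed no common direction. Of 47 listed 40 were tested, 19 with a higher and 21 with a lower mean in Ch25h KO, with a median log2 fold change of -0.02. Limma called 0 in either direction, and 5 had an unadjusted p under 0.05, beside 5.41% of all tested genes. DESeq2 and edgeR likewise called 0 members of these 6 lists. The groups did not overlap in 5 of the 40, a share of 12.5% beside the 10.2% of all tested genes. The only one higher in Ch25h KO was the thrombospondin gene Thbs3, with a log2 fold change of 1.12 ± 0.38 (SE) that did not pass (limma, adjusted p = 0.836). Its lowest Ch25h KO library, at 8.82 CPM, stood just above its highest WT library, at 8.49 CPM. The other 4, named after their values were seen except for Mmrn2, were lower: Mmrn2, Fbn1, Ltbp3 and Emilin1. Mmrn2, which encodes an endothelial multimerin, averaged 220 ± 40.5 CPM in Ch25h KO against 319 ± 51.8 CPM in WT (SD, n = 3 each; limma, adjusted p = 0.836). Sparc, the most abundant gene of the list, averaged 4228 ± 682 CPM in Ch25h KO against 3642 ± 567 CPM in WT, and Fn1, which encodes fibronectin, averaged 3356 ± 523 CPM in Ch25h KO against 3436 ± 1090 CPM in WT. The multimerin gene Mmrn1, also a lymphatic marker, averaged 1759 ± 447 CPM in Ch25h KO against 1992 ± 698 CPM in WT.

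**Figure D3:**
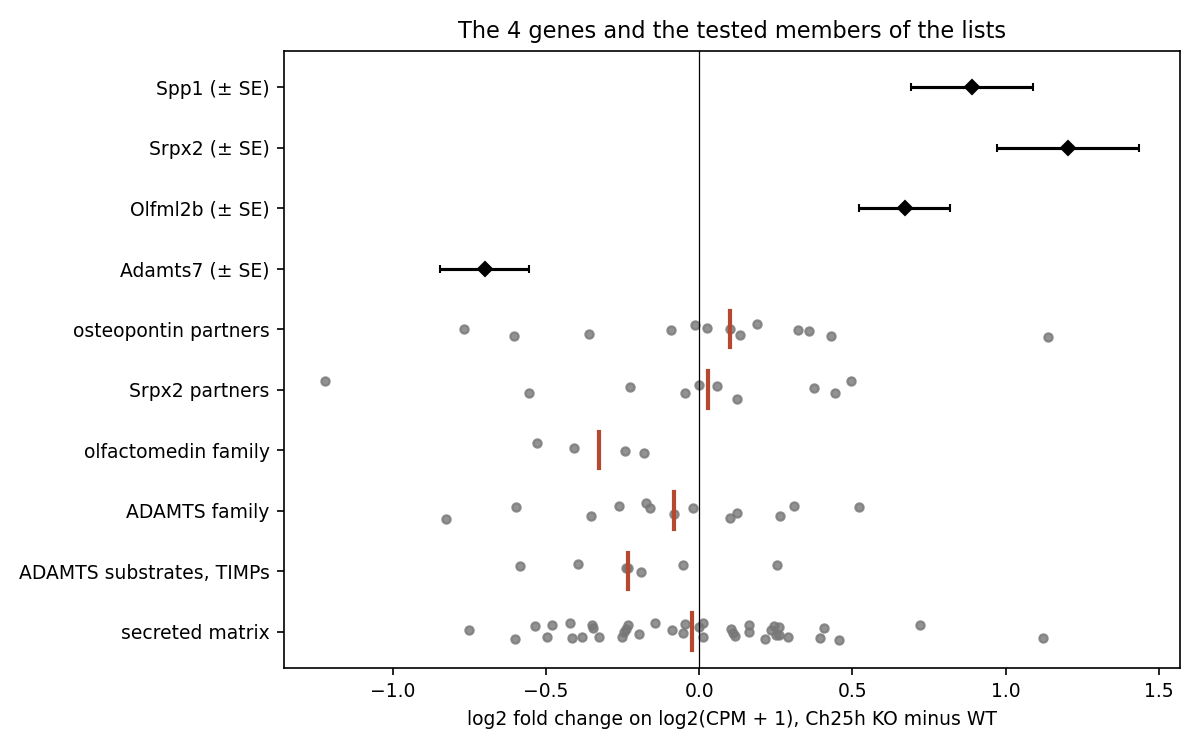
Log2 fold changes on log2(CPM + 1), Ch25h KO minus WT (horizontal axis), of the 4 genes (diamonds, with SE) and of the tested members of 6 lists (grey points, spread vertically only for legibility, with the median as a red bar). The medians of the lists lie between -0.33 and 0.10, and the 4 genes, chosen for their difference, lie at -0.70, 0.67, 0.89 and 1.20.

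Of 13 listed markers of lymphatic endothelium or of endothelium in general, 12 were in the table and had reads in every library. The listed Ccl21a was not in the table. Lyve1 averaged 3224 ± 698 CPM in Ch25h KO against 2595 ± 273 CPM in WT (SD, n = 3 each). Of these 12 markers, all tested, 4 had a higher and 8 a lower mean in Ch25h KO, with a median log2 fold change of -0.18. Limma called 0 of them, and 2 had an unadjusted p under 0.05, beside 5.41% of all tested genes. The groups did not overlap in 2, or 16.7%, beside 10.2% of all tested genes. These were Erg and Reln, named after their values were seen. Erg, an endothelial transcription factor gene, averaged 31.9 ± 3.54 CPM in Ch25h KO against 44.4 ± 1.77 CPM in WT, and Reln, which encodes reelin, averaged 313 ± 21.1 CPM in Ch25h KO against 392 ± 36.1 CPM in WT. The lymphatic transcription factor gene Prox1 averaged 319 ± 77.8 CPM in Ch25h KO against 451 ± 180 CPM in WT. The sort genes Pdpn, for GP38, and Pecam1, for CD31, averaged 155 ± 13.9 and 723 ± 123 CPM in Ch25h KO against 180 ± 11.5 and 705 ± 38.8 CPM in WT. Osteopontin is also a macrophage product, and whether macrophages contributed to the level of Spp1 was not tested. The macrophage markers, which overlapped between the genotypes, are given as a description. The 18 of 19 macrophage markers in the table summed to 405, 651 and 599 CPM in libraries 1 to 3 of Ch25h KO, against 763, 495 and 633 CPM in libraries 1 to 3 of WT. Mrc1, Gpnmb and Cd14 made up most of the 405 CPM in Ch25h KO library 1, at 205, 98.2 and 56.7 CPM. The sum is therefore a poor measure of macrophages alone. Of the 18 tested 3 had a higher and 15 a lower mean in Ch25h KO, with a median log2 fold change of -0.63. Limma called 0, and 0 had an unadjusted p under 0.05, beside 5.41% of all tested genes. Fcer1g, which encodes an Fc receptor subunit and was named after its values were seen, stood at 6.36, 17.3 and 200.1 CPM in libraries 1 to 3 of Ch25h KO, against 19.0, 13.7 and 18.3 CPM in libraries 1 to 3 of WT. It was highest in Ch25h KO library 3, as Spp1 was, although its groups overlapped (limma, adjusted p = 0.973). Most other macrophage markers were not highest there. Among the knockout libraries Lyz2, Emr1, Cd68, Csf1r, C1qb, C1qc, Mrc1, Cd14, Gpnmb, Tyrobp and Ptprc were highest in library 2, and Aif1 in library 1. C1qa, Fcgr1, Itgam, Arg1 and Trem2 were highest in library 3, C1qa only narrowly, at 5.95 CPM against 5.80 CPM in library 2. Mrc1, the most abundant of the list by mean at 236 ± 56.8 CPM in Ch25h KO against 260 ± 61.6 CPM in WT, is also expressed by lymphatic endothelium. Gpnmb averaged 84.6 ± 38.7 CPM in Ch25h KO against 92.5 ± 32.6 CPM in WT. Ptprc, which encodes CD45, was at 0, 19.7 and 1.69 CPM in libraries 1 to 3 of Ch25h KO and at 3.13, 0 and 0.994 CPM in libraries 1 to 3 of WT. The receptor gene Csf1r, which defines macrophages, was at 0, 6.71 and 3.50 CPM in libraries 1 to 3 of Ch25h KO and at 14.7, 1.57 and 8.40 CPM in libraries 1 to 3 of WT. In bulk samples fewer cells of a type and less RNA per cell cannot be told apart.

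Melanoma markers summed to 272, 168 and 109 CPM in libraries 1 to 3 of Ch25h KO, against 212, 75.7 and 46.2 CPM in libraries 1 to 3 of WT, over 13 of 14 listed genes, led by Dct and Pmel. Of the 11 tested 10 had a higher mean in Ch25h KO, as had 49.6% of all tested genes. The median log2 fold change of the 11 was 0.58, the direction of Spp1, Srpx2 and Olfml2b. Library 1 was the highest of each genotype in this sum, and library 3 the lowest. Spp1, Srpx2 and Olfml2b were each highest in Ch25h KO library 3. Fibroblast markers, 13 of 14 listed, summed to 286, 304 and 389 CPM in libraries 1 to 3 of Ch25h KO, against 646, 188 and 420 CPM in libraries 1 to 3 of WT. Of the 10 tested 4 had a higher and 6 a lower mean in Ch25h KO, with Thy1 and Col3a1 the most abundant. Dpt, Fap and Mfap5 were at 0 in WT library 2. Mural markers, 7 of 11 listed, summed to 293 to 412 CPM in Ch25h KO and 178 to 431 CPM in WT. Kcnj8 and Abcc9 made up most of this sum, at 284 and 28.9 of 325 CPM in Ch25h KO library 1. Rgs5, Cspg4, Myh11 and Notch3 were not in the table, and Pdgfrb was at 0 in Ch25h KO library 3. Limma called 0 members of these 4 lists, with 1 melanoma marker at an unadjusted p under 0.05, beside 5.41% of all tested genes. The part that such cells have in the levels of the 4 genes was not tested.

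**Figure D4:**
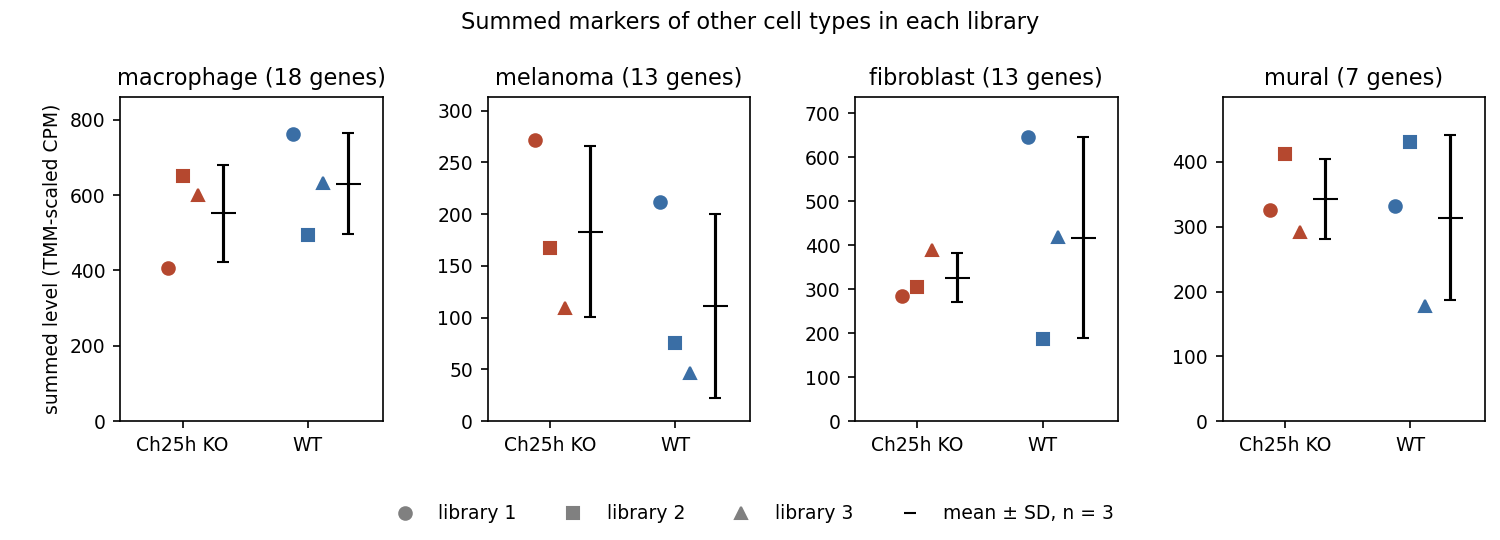
Summed levels in TMM-scaled CPM (vertical axis, starting at 0, its own scale in each panel) of macrophage, melanoma, fibroblast and mural markers in 3 Ch25h KO and 3 WT libraries, with mean and SD. The genotypes overlap in each of the 4 sums, and macrophage markers are lowest in Ch25h KO library 1 at 405 CPM. The macrophage sum includes the abundant Mrc1, which lymphatic endothelium also expresses.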

How the data were processed

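RNA from sorted tumour lymphatic endothelial cells was measured in 6 libraries, made per the labels' protocols with the SMART-Seq v4 and Nextera XT kits. The authors deposited a signal per gene in CPM scaled by TMM factors. The submitters' processing notes name edgeR 3.26.8, HTSeq 0.9.1, STAR 2.7.0 and the mm10 build, with no roles given. Divided by the smallest value above 0 of its library, taken as 1 read, 100% of values were whole reads within 0.01, and TMM factors computed from these reads equalled those in the columns. The kit adds no molecular identifiers, so intervals cover counting error only.

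Limma 3.58.1 in R 4.3.3 was run on log2(CPM + 1) of genes averaging 1 CPM or more, with genotype in the model, a trend in the variance prior and Benjamini-Hochberg adjustment at 0.05. The pseudocount understates changes of low genes. EdgeR 4.0.16 and DESeq2 1.42.0 on recovered reads, other pseudocounts, filters and scalings, a block and leaving out each library were alternatives. The fits were also run on simulated reads with the same dispersion for every gene. That run does not show how many true changes they would find at the spread of these libraries. Exon lengths and positions are from GENCODE M21, whose use by the authors is not stated. Older symbols in the table were matched through RefSeq synonyms (Lphn1, Lphn2 and Emr1 among others).

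The 4 genes and all lists were chosen with earlier results of these data known. Named were mainly the 4 genes, Ch25h and the sort genes, the 4 most abundant members and the 2 of smallest p of each list (of marker lists the 2 most abundant), and for each of the 4 genes the 3 most correlated genes. Other genes were chosen by position or kinship, or after their values were seen.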

Additional observations from a re-analysis of the deposited data

How the results depend on the processing

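The log2 fold changes of the 4 genes kept their sign in all 16 alternatives and moved by less than the spread between libraries. They ran from 0.66 to 1.04 for Spp1, 0.97 to 1.34 for Srpx2, 0.59 to 0.76 for Olfml2b and -0.77 to -0.62 for Adamts7. The lowest values of Spp1, Srpx2 and Olfml2b were those without Ch25h KO library 3. The number of genes called by limma, 1 with all libraries, was 0 with a pseudocount of 0.25 (650 at an unadjusted p under 0.05) and from 0 to 3 with a library left out, 0 without WT library 1 (1289 unadjusted) and 3 without WT library 2. On recovered reads edgeR called 0 genes (654 unadjusted) and DESeq2 called 11, Ch25h not among them. The cause was not tested. The 6 lists of partners, relatives and matrix genes had 0 members called in each of the 16 alternatives. Whether library numbers pair the samples could not be settled. Deviations from the genotype means correlated at 0.24, -0.06 and -0.10 between libraries 1, 2 and 3 of the genotypes. Between libraries of different number the correlation reached 0.27, for Ch25h KO library 2 and WT library 3. By their log2 values, Ch25h KO library 2 and WT library 2 were the most alike of all pairs (Pearson r = 0.979). With the replicate block limma called 1 gene, and the fold changes of the 4 genes were the same (0.89 for Spp1). With 3 libraries a group, differences smaller than the spread between libraries could not be shown.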

Other observations

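The nearest tested genes on the chromosome, chosen by position, were compared with the members. Tspan6, a tetraspanin gene ending 10.0 kilobases before Srpx2, stood at 200, 253 and 241 CPM in libraries 1 to 3 of Ch25h KO, against 178, 167 and 142 CPM in libraries 1 to 3 of WT. The groups did not overlap, which held for none of the other neighbours and for 10.2% of all tested genes. The log2 fold change of Tspan6, 0.51 ± 0.15 (SE), did not pass (limma, adjusted p = 0.836). Unlike Srpx2, Tspan6 was not highest in Ch25h KO library 3. Sytl4, on the other side of Srpx2, overlapped between the genotypes at 2.58 to 4.39 CPM in Ch25h KO and 3.31 to 6.27 CPM in WT. Pkd2, 18.4 kilobases after Spp1, averaged 77.9 ± 22.6 CPM in Ch25h KO against 74.6 ± 25.4 CPM in WT (SD, n = 3 each), and Atf6, 21.9 kilobases after Olfml2b, averaged 52.1 ± 6.54 CPM in Ch25h KO against 54.4 ± 6.30 CPM in WT. Morf4l1, 48.3 kilobases before Adamts7, averaged 39.1 ± 2.08 CPM in Ch25h KO against 41.8 ± 0.727 CPM in WT.

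Markers of sprouting tip cells had higher or lower means in the knockout, 5 higher and 6 lower of the 11 tested. Limma and DESeq2 called 0 of them, 2 had an unadjusted p under 0.05 by limma, beside 5.41% of all tested genes, and the groups did not overlap in 3, or 27.3%, beside 10.2% of all tested genes. Apln, named after its values were seen, averaged 58.5 ± 5.23 CPM in Ch25h KO against 26.7 ± 13.2 CPM in WT (SD, n = 3 each; limma, adjusted p = 0.836). Plvap averaged 1194 ± 110 CPM in Ch25h KO against 1878 ± 559 CPM in WT (limma, adjusted p = 0.836), and Dll4, also named after its values were seen, averaged 141 ± 4.90 CPM in Ch25h KO against 155 ± 2.95 CPM in WT. Angpt2 averaged 1282 ± 340 CPM in Ch25h KO against 1287 ± 430 CPM in WT.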
